A study of Homo sapiens with 6 samples.

Results

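Of the 34957 gene identifiers in the deposited tables, 9 were followed here because they encode named parts of the complement system and of fibrinogen: the complement proteins C3, C1R and C1S, the membrane inhibitors CD46, CD55 and CD59, and the fibrinogen chains FGA, FGB and FGG. All 9 genes carried reads in every library of A549 cells, an established human lung adenocarcinoma line, and all passed the minimum level for testing. The genes were chosen by name, with earlier results of these data known. Cells were harvested 48 h after they received a control siRNA (si-ctrl) or an siRNA against PLANE, a long noncoding RNA, of which 2 were used (si-PLANE.1, si-PLANE.2). RNA was sequenced in 2 libraries per group. Libraries are named by group and number, so that si-PLANE.2_3 and si-PLANE.2_4 are the replicates numbered 3 and 4 in the labels. PLANE was not analysed here, so the values hold no check of its knockdown. Nothing in the labels says whether the 2 libraries of a group came from separate cultures, and the spread between them may therefore be technical.

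Complement is a cascade of plasma proteins that marks and lyses cells. C1R and C1S are the serine proteases of the C1 complex that start the classical pathway, and C3 is the protein on which all pathways of complement converge. Nucleated cells protect themselves with surface inhibitors, among which CD46 is a cofactor for cleavage of C3b and C4b, CD55 speeds the decay of the C3 and C5 convertases and CD59 blocks assembly of the membrane attack complex. Fibrinogen is the soluble precursor of the clot, built of paired alpha, beta and gamma chains (FGA, FGB and FGG). Hepatocytes make most plasma fibrinogen and C3, both acute phase proteins that respond to IL-6 and glucocorticoid, while lung epithelial cells can also make them.

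The libraries held 10572151 to 20778431 expected counts, the estimated reads per transcript that the authors deposited beside FPKM values. The pair of si-PLANE.2 libraries was unlike the other 4 in composition. Histone mRNAs without poly(A), 8 genes in sum, reached 641 to 1423 FPKM in those 4 but 2.28 in si-PLANE.2_3 and 3.84 FPKM in si-PLANE.2_4. Transcripts annotated as non-coding took 9.05% to 9.97% of the counts in those 4 libraries and 6.00% and 6.15% in the si-PLANE.2 pair. More than 1 way of enriching mRNA is named in the methods, by poly(A) or by removing rRNA, and it is not stated which library had which. In every comparison with si-PLANE.2 below, what si-PLANE.2 did and how its libraries were prepared therefore cannot be told apart. The epithelial keratin KRT18 was at 3000 to 5131 FPKM, while the surfactant gene SFTPC did not exceed 0.65 FPKM and the leukocyte gene PTPRC did not exceed 0.02 FPKM. With si-PLANE.2 KRT18 rose by 0.69 ± 0.13 on the log2 scale of counts (edgeR adjusted p = 0.00237). The keratins KRT8 and KRT7 rose in counts by 1.225 ± 0.11 (adjusted p = 7.731e-05) and 0.51 ± 0.11 (adjusted p = 0.003805). In FPKM KRT7 did not rise, with 1098 and 1252 in si-ctrl and 1053 and 1136 in si-PLANE.2. The epithelial surface genes EPCAM and MUC1 fell by 1.71 ± 0.18 (adjusted p = 0.000137) and 1.11 ± 0.27 (adjusted p = 0.00801). EPCAM was at 14.8 to 26.5 FPKM in the other 4 libraries and 2.59 and 2.70 FPKM in this pair. Between replicates, KRT19 was lower in replicate 2 by 2.04 ± 0.38 (adjusted p = 7.105e-06) and MUC1 by 0.67 ± 0.19 (adjusted p = 0.01267). The myeloid markers CD68 and CD14 were expressed, at 18.2 to 63.0 and 4.06 to 9.41 FPKM, and rose with si-PLANE.2 by 1.06 ± 0.14 (adjusted p = 0.000477) and 0.74 ± 0.18 (adjusted p = 0.00889). CD68 was also lower in replicate 2 by 0.65 ± 0.14 (adjusted p = 0.000121), and the part of other cells in any result was not tested. Of 12 hepatocyte markers, 6 stayed under 1 FPKM in every library and albumin reached at most 1.58 FPKM, although CPS1 and APOH were expressed, and the summed level of the list was 114 to 174 FPKM. The haemoglobin gene HBB, a blood marker, was listed at 515 to 736 FPKM in si-ctrl_1, si-ctrl_2 and si-PLANE.1_1 and at 0 in the other 3 libraries, and the part of blood RNA in any result was not tested. Of 12 leukocyte and platelet markers, HBB among them, 6 stayed under 1 FPKM in every library, and the list summed to 582.5 and 553 FPKM in si-ctrl, 785 and 26.3 in si-PLANE.1, and 62.02 and 72.3 in si-PLANE.2.

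The order of the 9 genes in control cells was examined first. Levels are gene totals in FPKM, summed over the transcripts of a gene, and are given as mean ± SD of 2 libraries. FGB was the highest at 433 ± 45.9 FPKM, followed by CD46 at 279 ± 38.1 and FGG at 241 ± 42.0 FPKM, whose ranges overlapped each other. CD55 at 193 ± 13.1, C3 at 182 ± 22.1 and FGA at 149.8 ± 27.0 FPKM came next, and each overlapped its neighbour. CD59 at 92.0 ± 10.5, C1R at 27.3 ± 15.2 and C1S at 11.2 ± 3.92 FPKM stood below, each apart from the next. In every si-ctrl library the 6 most abundant members lay above 95.3% of the 14440 expressed genes. In bulk RNA, fewer cells that express a gene and less RNA per cell cannot be told apart.

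**Figure D1:**
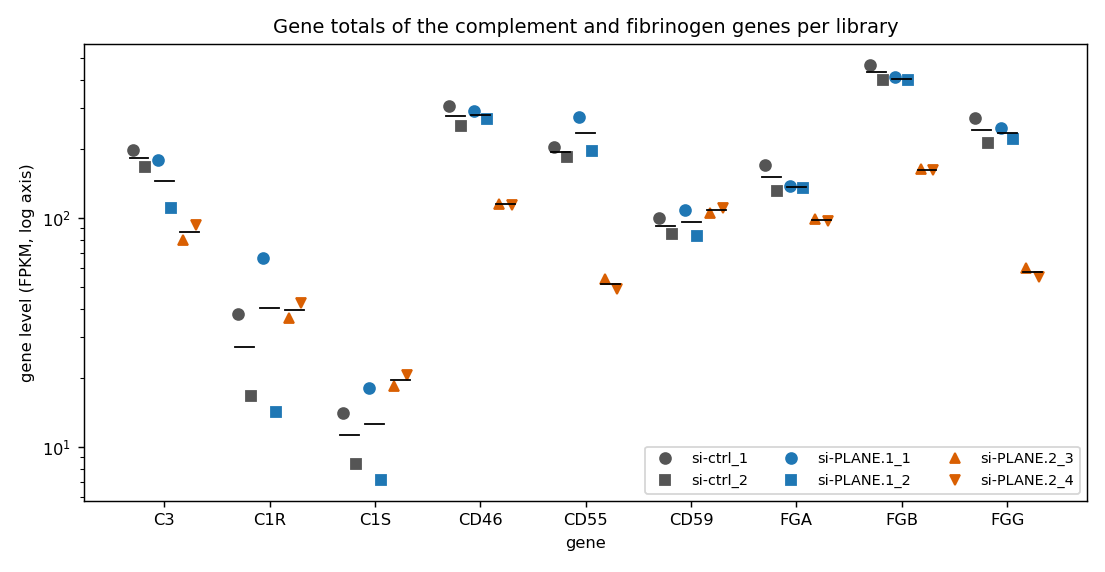
Level of each gene in FPKM (log axis) in the 6 libraries, with points for single libraries and black bars for the mean of the 2 libraries of a group. Both si-PLANE.2 points (orange) of C3, CD46, CD55, FGA, FGB and FGG lie below all other points of the gene, those of C1S lie above, and the points of C1R and C1S in si-ctrl and si-PLANE.1 separate by replicate number.

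The order rested in part on transcripts that encode no protein. Such transcripts took 61.98% and 67.0% of the summed C3 FPKM, 52.4% and 51.2% of that of CD46 and 64.7% and 69.3% of that of CD55 in the si-ctrl libraries, and no more than 1.18% of that of CD59. With them left out, the si-ctrl levels were 309 ± 43.3 FPKM for FGB, 199 ± 20.3 for FGG, 149.8 ± 27.0 for FGA, 134 ± 16.0 for CD46, 91.2 ± 10.1 for CD59, 64.9 ± 14.3 for C3 and 64.0 ± 10.7 FPKM for CD55. The fibrinogen chains then held the first 3 places, and the ranges of FGA and CD46 overlapped, as did those of C3 and CD55.

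The effect of each siRNA was tested on the expected counts of whole genes with edgeR's quasi-likelihood test, and a gene was called at an adjusted p below 0.05 over all genes tested. For si-PLANE.1, 0 of the 9 genes were called, against 0.0344% of all genes (5 of 14529), and the log2 fold changes ran from -0.27 for C3 to 0.39 for C1R. None of the 9 was called for si-PLANE.1 by DESeq2 or limma, and none had an unadjusted p below 0.05 in edgeR. For si-PLANE.2, 6 of the 9 were called, against a background of 64.1% of all genes (9084 of 14166), which is a share close to that of the members. CD59 and C1S rose, among 31.9% of all genes that were called higher, and CD55, FGA, FGB and FGG fell, among 32.3% called lower. The median log2 fold change of the 9 genes was -0.20, beside -0.03 over all genes. A fit with the shared replicate number as a block also called 0 of the 9 for si-PLANE.1, where it called 8.43% of all genes.

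**Figure D2:**
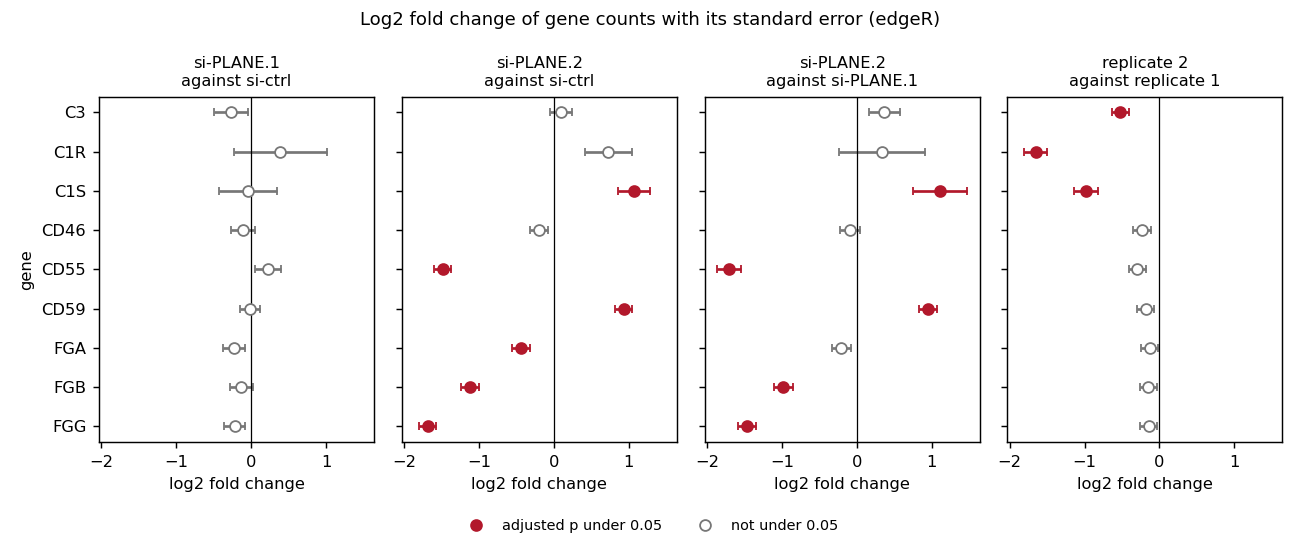
Log2 fold change of gene counts (x axis) with its standard error for the 9 genes in the 4 comparisons, with filled red points for genes with an edgeR adjusted p below 0.05. No gene is filled for si-PLANE.1, while 6 are filled for si-PLANE.2 against si-ctrl, 5 for si-PLANE.2 against si-PLANE.1 and 3 for replicate 2 against replicate 1.

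The fibrinogen genes lie side by side on chromosome 4 (GRCh37), with FGB (ENSG00000171564) at chr4:155484163-155493959 on the plus strand, FGA (ENSG00000171560) at chr4:155504278-155511894 and FGG (ENSG00000171557) at chr4:155525286-155534119, both on the minus strand. Gaps of 10.3 kb and 13.4 kb separate them. The bases before each start site are shown because IL-6, through STAT3 and C/EBP proteins, and the liver factor HNF1 are known to act on fibrinogen promoters. Each run holds the 250 bases before the RefSeq start, 5′ to 3′ on the strand of the gene (GRCh38), at chr4:154590743-154590992 (FGA), chr4:154562730-154562979 (FGB, the first of 2 starts) and chr4:154612657-154612906 (FGG), with matches to the motifs in capitals.
FGA: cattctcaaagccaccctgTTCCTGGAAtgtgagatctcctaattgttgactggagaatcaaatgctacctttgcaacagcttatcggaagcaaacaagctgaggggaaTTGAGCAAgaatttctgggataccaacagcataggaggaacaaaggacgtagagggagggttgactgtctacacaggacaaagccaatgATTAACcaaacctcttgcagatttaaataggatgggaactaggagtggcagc
FGB: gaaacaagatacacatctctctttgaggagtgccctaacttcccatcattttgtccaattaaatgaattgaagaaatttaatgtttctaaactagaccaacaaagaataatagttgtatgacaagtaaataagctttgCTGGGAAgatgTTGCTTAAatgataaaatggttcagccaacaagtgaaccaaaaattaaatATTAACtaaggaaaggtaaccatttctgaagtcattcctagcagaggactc
FGG: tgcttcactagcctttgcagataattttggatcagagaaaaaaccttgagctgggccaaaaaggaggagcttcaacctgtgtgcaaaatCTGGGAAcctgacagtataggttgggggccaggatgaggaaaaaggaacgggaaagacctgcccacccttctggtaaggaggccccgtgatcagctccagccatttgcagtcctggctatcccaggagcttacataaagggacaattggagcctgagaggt
Motifs were searched on both strands in 300 bases, from 250 before to 50 after the start. The FGA window matched TTCNNNGAA (STAT), TTGCNNAA (C/EBP) and GTTAAT (part of an HNF1 site), the FGB window matched CTGGGAA (type II IL-6 element), TTGCNNAA and GTTAAT, and the FGG window matched CTGGGAA. These letters were found in 7.66% (TTCNNNGAA), 10.8% (CTGGGAA), 10.5% (TTGCNNAA) and 6.88% (GTTAAT) of 35116 promoter windows, and GAAANNGAA, an interferon response element, was found in 8.11% of them and in none of these 3. Windows for CD46 and CD55 matched none of the 5 motifs, 1 of 2 C1R windows matched TTCNNNGAA, TTGCNNAA and GTTAAT, and the other matched TTGCNNAA. Of the 4 CD59 windows, 2 overlapping ones matched TTCNNNGAA at the same place and 1 matched TTGCNNAA at 2 places. A match describes the letters only.

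FGG, the gamma chain, measured 271 FPKM in si-ctrl_1, 212 in si-ctrl_2, 246 in si-PLANE.1_1, 221 in si-PLANE.1_2, 60.2 in si-PLANE.2_3 and 55.2 FPKM in si-PLANE.2_4. Both si-PLANE.2 libraries were thus below all others, and si-PLANE.1 lay within the si-ctrl range. In counts, FGG fell by 1.69 ± 0.12 on the log2 scale (fold change ± SE) with si-PLANE.2, a level 3.22-fold lower (edgeR adjusted p = 2.191e-05), and the change with si-PLANE.1 was -0.22 ± 0.14 (adjusted p = 0.624).
FGB, the beta chain, measured 465 and 400.4 FPKM (si-ctrl), 409.9 and 399 (si-PLANE.1), and 163 and 161 FPKM (si-PLANE.2). Its si-PLANE.2 libraries again stood below the other 4. FGB fell by 1.12 ± 0.12 on the log2 scale with si-PLANE.2, 2.17-fold (edgeR adjusted p = 0.0001479), and its change with si-PLANE.1 was -0.13 ± 0.15 (adjusted p = 0.781).
FGA, the alpha chain, measured 169 and 131 FPKM (si-ctrl), 137 and 134 (si-PLANE.1), and 98.8 and 96.3 FPKM (si-PLANE.2). Although the si-PLANE.2 libraries were again the lowest, the change was smaller, at -0.44 ± 0.12 on the log2 scale, 1.36-fold (edgeR adjusted p = 0.0153). That call was lost when either si-PLANE.2 library was left out, at -0.45 without si-PLANE.2_3 (adjusted p = 0.0987) and -0.41 without si-PLANE.2_4 (adjusted p = 0.125), where the 1 library left is assumed to vary like si-ctrl. FGA changed by -0.23 ± 0.15 with si-PLANE.1 (adjusted p = 0.634).

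The balance of the chains was described by ratios within each library. The ratio of FGB to FGA FPKM was 2.76 and 3.06 in si-ctrl, 2.98 and 2.97 in si-PLANE.1, and 1.65 and 1.67 in si-PLANE.2. The ratio of FGG to FGA was 1.61 and 1.62, then 1.79 and 1.64, and 0.609 and 0.574 in the same order. Neither ratio overlapped between si-PLANE.2 and the other groups. These ratios sum all transcripts of a gene, short forms included. FGB-207, a shorter protein-coding form described below, took 47.7% to 52.3% of the FGB FPKM in si-ctrl and si-PLANE.1. It took 26.4% and 28.3% in si-PLANE.2, and the balance of full-length forms alone was not examined. The ratio of FGB to FGG was 1.67 to 1.89 in the former 4 libraries and 2.71 and 2.92 in si-PLANE.2, but with the transcripts annotated as non-coding left out it was 1.51 to 1.72 and 1.71 and 1.92, so that these ranges overlapped. With 2 libraries against 2, an exact permutation test cannot give a p below 0.333, and the ratios were not tested.

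FGG makes different ends of the gamma chain by alternative processing at its last intron. The gamma-A end is the major form in plasma, and the longer gamma-prime end, which binds thrombin, arises when that intron is retained up to an internal poly(A) site. The ends are shown because their proportion differed between libraries. Each run gives 30 coding bases that both share in lower case and the coding bases of that end alone in capitals, before the stop codon (GRCh37, minus strand), the capitals being chr4:155525989-155526048 in exon 9 of FGG-201 (gamma-prime) and chr4:155525495-155525506 in exon 10 of FGG-203 (gamma-A).
FGG-201 gamma-prime: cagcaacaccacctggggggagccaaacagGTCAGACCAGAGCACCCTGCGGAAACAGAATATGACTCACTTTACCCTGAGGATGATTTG
FGG-203 gamma-A: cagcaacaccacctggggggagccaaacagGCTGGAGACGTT
FGG-201 (ENST00000336098, 453 codons), with the gamma-prime end, measured 92.3 and 72.7 FPKM (si-ctrl), 80.5 and 60.1 (si-PLANE.1), and 9.53 and 14.1 FPKM (si-PLANE.2). FGG-203 (ENST00000404648, 437 codons), with the gamma-A end, was at 68.4 and 47.2, then 50.1 and 49.7, and 45.1 and 38.7 FPKM. FGG-201 fell by 2.51 ± 0.25 on the log2 scale with si-PLANE.2 (edgeR adjusted p = 0.0104), while FGG-203 changed by -0.17 ± 0.22 (adjusted p = 0.591). A further transcript with the gamma-A end, FGG-204 (ENST00000405164, 445 codons), held 897 and 1184 counts in si-ctrl, 688 and 851 in si-PLANE.1 and 0 in both si-PLANE.2 libraries, which was at least 482-fold lower against a floor of 3 counts per library. Among the counts of these 3 full-length transcripts, the gamma-prime end took 43.5% and 39.9% in si-ctrl, 45.2% and 35.2% in si-PLANE.1, and 16.5% and 25.4% in si-PLANE.2. The si-PLANE.2 shares lay below all others, and 95% Wilson intervals, which cover counting error only, were no wider than 4.48 percentage points for these and the CD46 shares below.
FGB-207 (ENST00000509493), a shorter protein-coding form of 272 codons, measured 222 and 203 FPKM (si-ctrl), 196 and 208 (si-PLANE.1), and 43.0 and 45.6 FPKM (si-PLANE.2), and fell by 1.96 ± 0.11 on the log2 scale with si-PLANE.2 (edgeR adjusted p = 0.00628). The full-length FGB-201 (ENST00000302068, 491 codons) was at 118 and 75.4, then 108 and 89.7, and 56.9 and 60.2 FPKM, with a change of -0.44 ± 0.23 that was not called (adjusted p = 0.231). For FGA, FGA-201 (ENST00000403106) took 93.2% to 95.8% of the FPKM in all libraries, and its change of -0.31 ± 0.15 was not called as a transcript (adjusted p = 0.205).

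The membrane inhibitors moved apart from each other with si-PLANE.2. CD55 (ENSG00000196352, chr1:207494864-207560149, plus strand, GRCh37) measured 203 and 184 FPKM (si-ctrl), 275 and 195 (si-PLANE.1), and 53.95 and 48.9 FPKM (si-PLANE.2). Its si-PLANE.2 libraries were far below the other 4, and si-PLANE.1_1 was the highest of all. CD55 fell by 1.48 ± 0.11 on the log2 scale, 2.80-fold (edgeR adjusted p = 3.106e-05), and its change with si-PLANE.1 was 0.23 ± 0.17 (adjusted p = 0.678). The change was smaller without transcripts annotated as non-coding, at -0.54 ± 0.18 (adjusted p = 0.0405).
CD59 (ENSG00000085063, chr11:33724556-33758025, minus strand) measured 99.5 and 84.6 FPKM (si-ctrl), 108 and 82.7 (si-PLANE.1), and 105 and 110.2 FPKM (si-PLANE.2). On this scale si-PLANE.2 lay above si-ctrl and overlapped si-PLANE.1. In CPM, the counts scaled to library size by TMM, CD59 was at 92.7 and 76.2, then 86.4 and 81.2, and 166 and 159, and rose by 0.93 ± 0.12 on the log2 scale with si-PLANE.2, 1.91-fold (edgeR adjusted p = 0.0003275). With limma on log2(FPKM + 1) the difference was 0.23 and was not called (adjusted p = 0.146). Counts give long transcripts more weight than summed FPKM does, and the cause of the gap between these scales for CD59 was not tested.
CD46 (ENSG00000117335, chr1:207925382-207968858, plus strand) lies 365 kb from CD55. It measured 306 and 252 FPKM (si-ctrl), 292 and 268 (si-PLANE.1), and 115 and 114 FPKM (si-PLANE.2). The si-PLANE.2 libraries stood far below the others in FPKM but within or close to their range in counts, with 497 and 406, then 449 and 395, and 402 and 390.5 CPM, and a log2 change of -0.20 ± 0.12 (edgeR adjusted p = 0.179). Limma on log2(FPKM + 1) gave -1.27 and called it (adjusted p = 0.000724), whereas the counts without transcripts annotated as non-coding gave 0.09 (edgeR adjusted p = 0.584). The change in counts was -0.06 without si-ctrl_1 and -0.34 without si-ctrl_2, values for which 1 control library is left and the spread is that of the si-PLANE.2 pair.

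CD46 protein carries 1 of 2 cytoplasmic tails, known as CYT-1 and CYT-2, which differ by inclusion of 1 exon near the end of the message. The ends are shown because their isoforms changed differently. As above, 30 shared coding bases are in lower case and the coding bases of that tail alone are in capitals (GRCh37, plus strand), at chr1:207963598-207963646 in exon 12 of 13 of CD46-208 and at chr1:207966864-207966933 in CD46-203. The exon itself spans 93 bases, and in CD46-208 the rest of it follows the stop codon.
CD46-208 exon included: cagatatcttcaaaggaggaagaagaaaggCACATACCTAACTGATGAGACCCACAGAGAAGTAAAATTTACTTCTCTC
CD46-203 exon skipped: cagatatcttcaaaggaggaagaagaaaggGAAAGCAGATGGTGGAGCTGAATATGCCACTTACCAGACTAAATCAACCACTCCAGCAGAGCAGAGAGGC
CD46-203 (ENST00000354848, 384 codons), which skips the exon, measured 18.8 and 18.3 FPKM (si-ctrl), 12.3 and 18.9 (si-PLANE.1), and 46.6 and 45.4 FPKM (si-PLANE.2). It rose by 1.59 ± 0.10 on the log2 scale with si-PLANE.2 (edgeR adjusted p = 0.00679), and its share of the summed CD46 FPKM went from 4.22% to 7.26% in the other 4 libraries to 40.5% and 39.8%. CD46-208 (ENST00000367042, 377 codons), which includes it, was at 71.9 and 44.1, then 69.9 and 43.6, and 43.0 and 42.9 FPKM, a change of -0.15 ± 0.25 (adjusted p = 0.682).
The shift was not one from inclusion to skipping alone. CD46-214 (ENST00000480003, 370 codons), a shorter transcript that also skips the exon, measured 36.6 and 44.2 FPKM (si-ctrl), 38.75 and 37.6 (si-PLANE.1), and 1.79 and 1.99 FPKM (si-PLANE.2), and fell by 4.12 ± 0.23 on the log2 scale (edgeR adjusted p = 0.00629). Over 8 full-length coding transcripts, the forms that skip the exon took 43.6% and 56.3% of the FPKM in si-ctrl, 40.2% and 52.4% in si-PLANE.1, and 54.2% and 55.8% in si-PLANE.2, so that the groups overlapped. In counts the same shares were 31.6% and 41.8%, then 26.1% and 38.7%, and 53.0% and 54.5%, which did not overlap. On both scales the share was higher in replicate 2 than in replicate 1 of si-ctrl and of si-PLANE.1.

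The leading CD55 transcript was CD55-208 (ENST00000488171), which retains an intron. It measured 128 and 119 FPKM (si-ctrl), 193 and 126 (si-PLANE.1), and 16.5 and 15.6 FPKM (si-PLANE.2), and fell by 2.65 ± 0.12 on the log2 scale (edgeR adjusted p = 0.00533), while its share of CD55 went from 63.1% to 70.2% in the other libraries to 30.6% and 31.9%. ENST00000367067, which was not in the annotation used, changed by -0.52 ± 0.19 (adjusted p = 0.113). For CD59, ENST00000395850 rose from 29.8 and 25.7 FPKM to 57.4 and 53.5 FPKM, or 1.29 ± 0.13 on the log2 scale (adjusted p = 0.0108), and ENST00000351554 rose from 7.90 and 4.53 to 23.3 and 20.3 FPKM, or 2.11 ± 0.33 (adjusted p = 0.0214). Both encode 128 codons and are 1889 and 1775 bases long. ENST00000528700 (652 bases) fell from 26.4 and 27.0 to 3.96 and 1.34 FPKM, a change of -2.96 ± 0.66 (adjusted p = 0.0433).

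**Figure D3:**
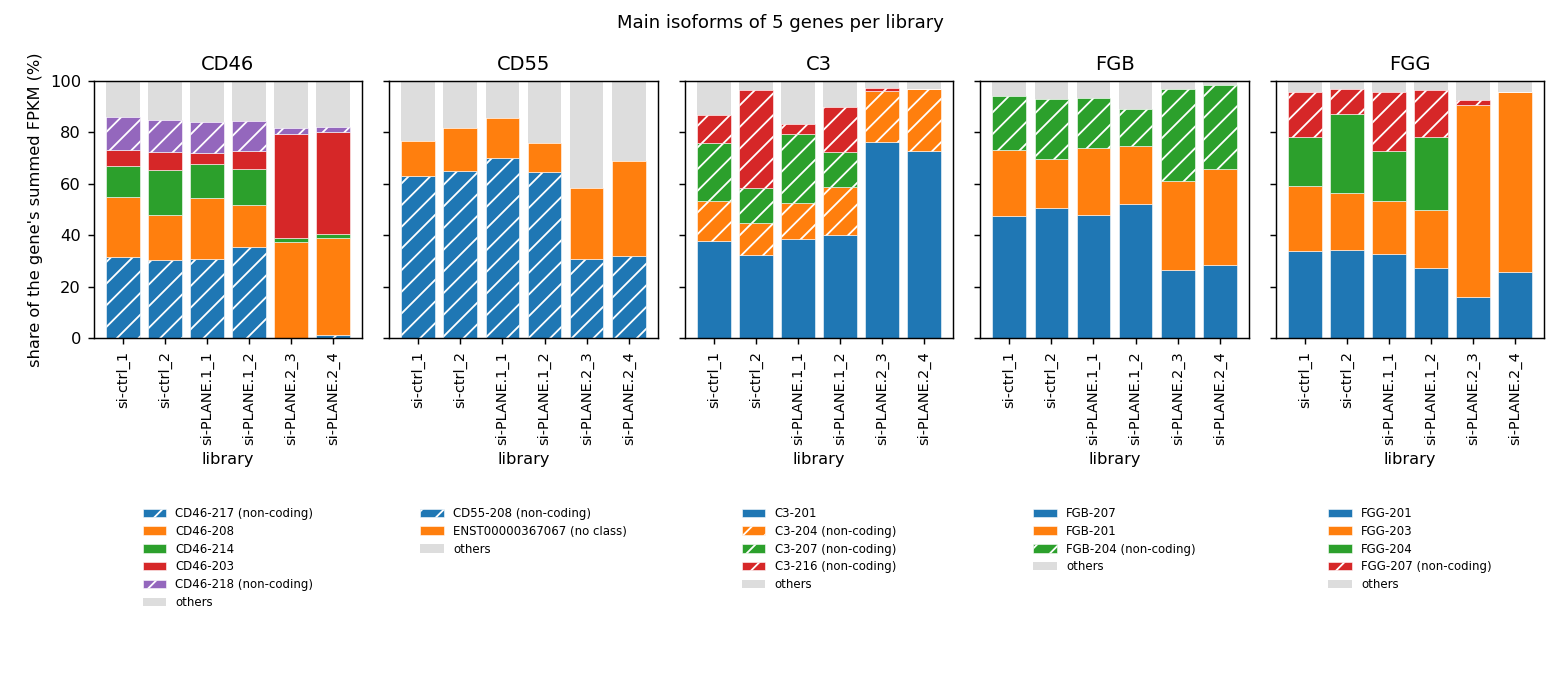
Share of the summed FPKM of a gene (y axis, in %) taken by its main isoforms in each library, for CD46, CD55, C3, FGB and FGG, with hatching for transcripts annotated as non-coding. In both si-PLANE.2 libraries CD46-203 takes 40.5% and 39.8% of CD46 and FGG-203 takes 74.9% and 70.1% of FGG, and the hatched parts of CD46, CD55, C3 and FGG shrink while that of FGB does not.

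C3 (ENSG00000125730, chr19:6677715-6730573, minus strand, GRCh37) measured 197 and 166 FPKM (si-ctrl), 179 and 110.3 (si-PLANE.1), and 79.9 and 92.4 FPKM (si-PLANE.2). On this scale the si-PLANE.2 libraries were the lowest. In CPM they were not, with 407 and 300.1, then 356 and 233, and 363 and 399, and the log2 change with si-PLANE.2 was 0.10 ± 0.15 (edgeR adjusted p = 0.595). The direction thus depended on the scale, since limma on log2(FPKM + 1) gave -1.07 and called it (adjusted p = 0.00156). The full-length transcript of C3 (ENST00000245907) measured 74.5 and 53.4 FPKM (si-ctrl), 68.8 and 44.1 (si-PLANE.1), and 61.1 and 67.1 FPKM (si-PLANE.2), and was not called (0.28 ± 0.18, adjusted p = 0.298). Its share of the C3 FPKM was 32.1% to 40.0% in the former 4 libraries and 76.45% and 72.6% in si-PLANE.2, while its mean share of the C3 counts was 91.4% in si-ctrl and 97.4% in si-PLANE.2. C3-207 (ENST00000596238), a retained intron form, held 190 and 100.1 counts in si-ctrl, 164 and 49.9 in si-PLANE.1 and 0 in both si-PLANE.2 libraries, at least 67.8-fold lower against a floor of 3 counts per library.
With si-PLANE.1 the C3 change in counts was -0.27 ± 0.23 (edgeR adjusted p = 0.713). The si-PLANE.2 value also turned with single control libraries, from 0.32 without si-ctrl_1 to -0.11 without si-ctrl_2. With 1 control library left, the spread in these fits is that of the si-PLANE.2 pair, and no call is given.

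C1S (ENSG00000182326, chr12:7096351-7178336, plus strand) and C1R (ENSG00000159403, chr12:7187513-7245203, minus strand) are neighbours, with 9.18 kb between them in GRCh37. C1S measured 14.0 and 8.42 FPKM (si-ctrl), 18.0 and 7.14 (si-PLANE.1), and 18.4 and 20.6 FPKM (si-PLANE.2). Its si-PLANE.2 libraries were the highest, though si-PLANE.1_1 was close. C1S rose by 1.07 ± 0.21 on the log2 scale with si-PLANE.2, 2.10-fold (edgeR adjusted p = 0.00327), and changed by -0.04 ± 0.39 with si-PLANE.1 (adjusted p = 0.977). Of its 2 leading forms, ENST00000328916 rose by 1.88 ± 0.36 (adjusted p = 0.0321) and ENST00000360817 changed by 0.40 ± 0.32 (adjusted p = 0.388), and both encode 688 codons.
C1R measured 38.1 and 16.6 FPKM (si-ctrl), 66.7 and 14.1 (si-PLANE.1), and 36.5 and 42.4 FPKM (si-PLANE.2). The 2 libraries of si-ctrl and of si-PLANE.1 lay further apart than the group means. Neither the si-PLANE.2 change of 0.73 ± 0.31 (edgeR adjusted p = 0.0723) nor the si-PLANE.1 change of 0.39 ± 0.62 (adjusted p = 0.850) was called. The si-PLANE.2 value was 1.40 without si-ctrl_1 and 0.26 without si-ctrl_2. These are given as values only, since 1 control library is then left and the spread comes from the si-PLANE.2 pair, which the lone library is assumed to share. The 3 main C1R transcripts are incomplete in the annotation, and their shares are left out here.

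C1R, C1S and C3 also differed by replicate number. Replicate 2 was compared with replicate 1 over si-ctrl and si-PLANE.1, with the group as a covariate. C1R was 2.30-fold higher in FPKM in si-ctrl_1 than in si-ctrl_2 and 4.72-fold higher in si-PLANE.1_1 than in si-PLANE.1_2. C1S was 1.66-fold and 2.53-fold higher, and C3 1.19-fold and 1.63-fold higher. In counts, C1R fell by 1.65 ± 0.15 on the log2 scale in replicate 2 (edgeR adjusted p = 2.065e-25), C1S by 0.98 ± 0.16 (adjusted p = 4.363e-08) and C3 by 0.52 ± 0.12 (adjusted p = 0.0004085). These were the 3 called of the 9, against 5.6% of all genes (813 of 14529). The other 6 were also below 0, at -0.13 to -0.30, and were not called. When 1 of the 4 libraries was left out of a fit of all 6, the C1R difference was -1.15 (either si-PLANE.1 library out) or between -2.20 and -2.21 (either si-ctrl library out). Such a fit rests on the remaining pair and takes its spread from the si-PLANE.2 pair, so these are values with no call.
The size of these p-values depended on the tool. DESeq2 gave C1R an adjusted p of 0.0535 and called C1S (0.0154) and C3 (0.00267), while edgeR with no group term called C1R (0.00366) and C1S (0.0453) but not C3 (0.484), and limma on log2(FPKM + 1) called none of the 3, with adjusted p of 0.203 for C1R, 0.301 for C1S and 0.423 for C3. The C1R difference came to -1.11 within si-ctrl and -2.12 within si-PLANE.1 on the log2 scale of CPM. Between si-PLANE.2_3 and si-PLANE.2_4, whose numbers 3 and 4 are shared with no other group, C1R differed by 0.23, C1S by 0.11 and C3 by 0.14. The labels do not say what a replicate number stands for.
The ratio of C1R to C1S FPKM was 2.73 and 3.70 in both replicates numbered 1, 1.97 and 1.98 in those numbered 2, and 1.98 and 2.06 in si-PLANE.2. C1R thus moved further than its partner C1S.

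**Figure D4:**
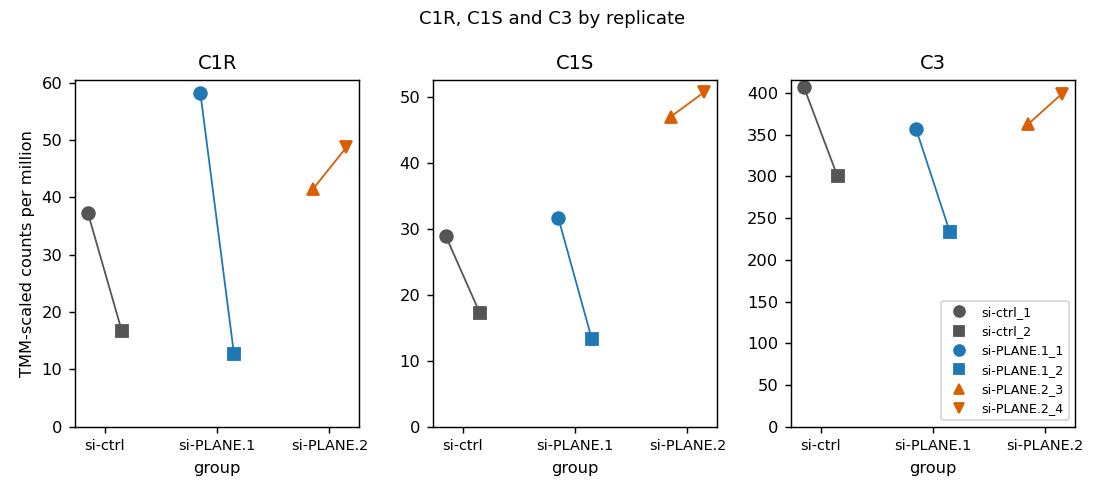
TMM-scaled CPM (y axis, from 0) of C1R, C1S and C3 in each library, with lines joining the 2 libraries of a group. All 3 genes drop from replicate 1 to replicate 2 in si-ctrl and si-PLANE.1, with C1R at 37.2 and 16.8 and at 58.3 and 12.6 CPM, and the 2 si-PLANE.2 libraries lie closer together.

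Both siRNAs are directed against PLANE, and their groups were compared with each other over all 6 libraries. Of the 9 genes 5 were called, against 64.5% of all genes (9306 of 14437). With si-PLANE.2 relative to si-PLANE.1, the log2 difference was -1.71 ± 0.16 for CD55 (edgeR adjusted p = 2.91e-05), -1.46 ± 0.12 for FGG (adjusted p = 1.483e-05) and -0.98 ± 0.13 for FGB (adjusted p = 0.0001789). C1S was higher by 1.12 ± 0.36 (adjusted p = 0.0231) and CD59 by 0.95 ± 0.12 (adjusted p = 0.0001524). C3, C1R, CD46 and FGA were not called, with log2 differences of 0.37 ± 0.21, 0.34 ± 0.57, -0.09 ± 0.14 and -0.20 ± 0.13. The C1S call was lost with DESeq2 (1.14, adjusted p = 0.0664) and with limma on log2(FPKM + 1) (0.72, adjusted p = 0.168), and that of CD59 with limma (0.18, adjusted p = 0.344). The C1S difference was 1.88 without si-PLANE.1_1 and 0.62 without si-PLANE.1_2, and 1.18 and 1.07 without si-PLANE.2_3 or si-PLANE.2_4, and the call was lost in the latter 3 (edgeR adjusted p = 0.0834, 0.0650 and 0.0854). The C1R difference was 1.83 without si-PLANE.1_1 and -0.38 without si-PLANE.1_2, and that of C3 was 0.70 and 0.09. In these fits 1 library is left in an arm and is assumed to vary like the other 2 groups.

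Over the 9 genes, 94 transcripts were above 0 and 28 were main isoforms, the most abundant of a gene or those with at least 10% of its mean FPKM. For si-PLANE.1 none of the 28 was called, with 0.0% of all 57611 transcripts called by edgeR, 2552 of them at an unadjusted p below 0.05, and 391 called by DESeq2. For si-PLANE.2, 4 were called higher and 10 lower, against 25.6% of all 56787 transcripts. With a minimum of 2 FPKM, which all main isoforms passed, 13499 of 28477 transcripts were called, a share close to that of the main isoforms. All 8 main isoforms annotated as non-coding were below 0 and 5 were called, with a median log2 change of -4.52, while the 19 protein-coding ones had a median of 0.10. Retained intron transcripts were also lower across the data, where 69.65% of the 10274 tested had a log2 change of counts below 0, with a median of -1.16, beside 0.19 for 29730 protein-coding transcripts. Of those 10274, 1520 were called lower and 474 higher, as were 697 and 382 of 5647 transcripts of coding genes with no defined coding sequence. Leaving out either si-PLANE.2 library left 0 transcripts called. The 3 main non-coding forms that were not called were C3-204 (ENST00000594936, -0.10 ± 0.35), FGB-204 (ENST00000497097, -0.44 ± 0.16) and FGG-207 (ENST00000464532, -5.50 ± 1.43, edgeR adjusted p = 0.0586).
Some of these results differed between scales. Summed FPKM counts each short non-coding transcript as much as a full-length one, so that in FPKM the si-PLANE.2 level of C3 was 0.474 times that of si-ctrl with all transcripts and 0.996 times without the non-coding ones. The same ratios were 0.411 and 0.804 for CD46 and 0.266 and 0.545 for CD55. They were 0.239 and 0.285 for FGG, 0.374 and 0.332 for FGB and 0.651 for FGA, which has no such transcript. The mean change of FGG, FGB, CD55, FGA and CD46 was thus below 0 on all 3 scales, although that of CD46 in counts was not called. In counts without the transcripts annotated as non-coding, the CD46 change was above 0 and not called. The changes of C1S, C1R and CD59 were above 0 on all 3, those of C1R not being called in counts, and C3 changed direction.

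**Figure D5:**
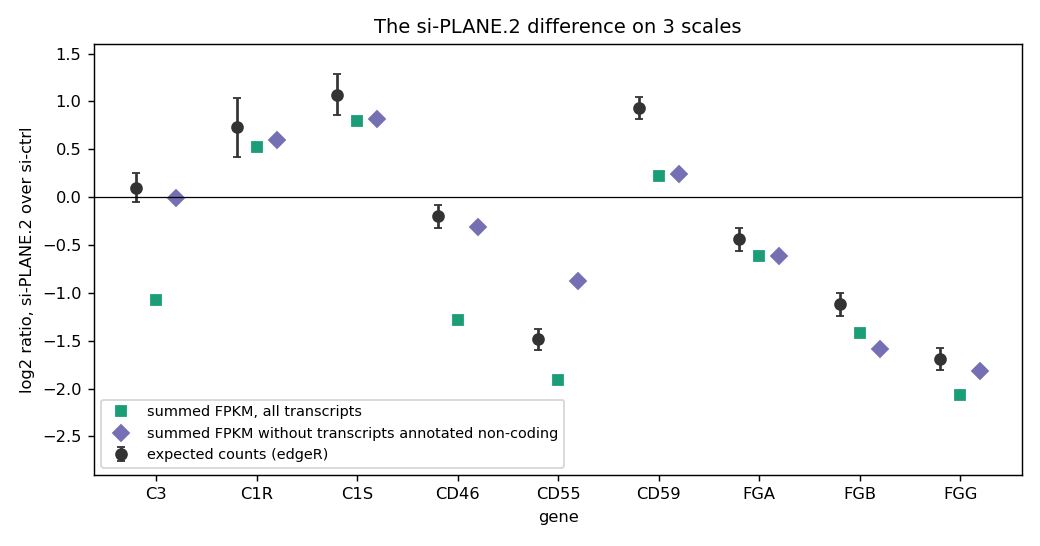
Log2 ratio of si-PLANE.2 over si-ctrl (y axis) for the 9 genes in expected counts (black, with the standard error of the fit), in summed FPKM of all transcripts (green) and in summed FPKM without transcripts annotated as non-coding (purple). The scales lie close for FGG, FGB, FGA, C1R and C1S, and far apart for C3, CD46 and CD55, while CD59 is higher in counts than in FPKM.

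Other genes of the cascades were described from lists, whose counts stand beside 31.9% of all genes called higher and 32.3% called lower with si-PLANE.2, and 5.6% called between replicates. Of 24 complement components, 5 reached the minimum for testing, and of these 1 was called higher and 2 lower with si-PLANE.2. CFD, the factor D protease of the alternative pathway, rose by 0.93 ± 0.10 on the log2 scale (edgeR adjusted p = 0.0001657). C5, from which the lytic pathway starts, fell by 0.94 ± 0.09 (adjusted p = 9.159e-05). CFB, the factor B protease precursor, measured 57.2 and 26.9 FPKM (si-ctrl), 73.5 and 14.1 (si-PLANE.1), and 10.8 and 11.1 FPKM (si-PLANE.2). Like C1R it was lower in replicate 2, at -1.69 ± 0.16 (adjusted p = 5.223e-24), and it fell by 0.70 ± 0.23 with si-PLANE.2 (adjusted p = 0.0286). C4A was also called lower in replicate 2 (-2.48 ± 0.42, adjusted p = 4.578e-07) at 0.62 to 2.98 FPKM, and its reads cannot be told apart with certainty from those of the near-identical C4B.
Of 28 regulators and receptors 13 were tested, with 5 called higher and 2 lower with si-PLANE.2. The fluid-phase regulator clusterin (CLU, 903 to 1179 FPKM) was not called in any of the 4 comparisons. Vitronectin (VTN) rose by 1.21 ± 0.11 (edgeR adjusted p = 7.267e-05), and factor I (CFI), the protease that CD46 serves as a cofactor, fell by 0.72 ± 0.19 (adjusted p = 0.0117). Between replicates CFI was higher in replicate 2 by 0.52 ± 0.15 (adjusted p = 0.0135), the opposite direction to C3, while C4BPA was lower by 0.84 ± 0.25 (adjusted p = 0.0173).

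Of 25 coagulation genes 15 were tested, and 4 were called higher and 4 lower with si-PLANE.2. F5, the cofactor of factor Xa, fell by 0.80 ± 0.18 (edgeR adjusted p = 0.00617), the thrombin receptor F2R fell by 0.67 ± 0.12 (adjusted p = 0.00222), and protein S (PROS1) changed by -0.07 ± 0.11 (adjusted p = 0.610). The fibrinogen-like gene FGL1 was not called with si-PLANE.2, at 0.43 ± 0.25 (adjusted p = 0.160), and was lower in replicate 2 by 0.75 ± 0.14 (adjusted p = 8.523e-06). F5, PROS1 and F2RL1 were higher in replicate 2, by 0.61 ± 0.12, 0.43 ± 0.12 and 0.35 ± 0.12.
Of 16 acute phase genes 10 were tested for si-PLANE.2, and 5 rose and 3 fell. SAA1, an apolipoprotein of the acute phase, was at 0.00 to 2.01 FPKM in si-ctrl and si-PLANE.1 and at 29.1 and 34.5 FPKM in si-PLANE.2 (4.65 ± 0.32, edgeR adjusted p = 2.218e-05). LCN2, an iron-scavenging lipocalin, was at 19.1 to 52.3 FPKM in the former and at 298 and 309 FPKM in the latter (3.19 ± 0.25, adjusted p = 3.779e-05), and was lower in replicate 2 by 1.08 ± 0.16 (adjusted p = 6.109e-09). The antiprotease SERPINA1 fell by 1.63 ± 0.13 (adjusted p = 3.954e-05) and ceruloplasmin (CP) by 0.36 ± 0.10 (adjusted p = 0.0141), so that the list, like the 9 genes, held calls in both directions.
Of 22 genes of the IL-6 and glucocorticoid pathway in the tables, all were tested for si-PLANE.2, and 8 rose and 6 fell. The shared receptor chain IL6ST fell by 0.81 ± 0.11 (edgeR adjusted p = 0.0003982), the oncostatin M receptor OSMR by 0.75 ± 0.10 (adjusted p = 0.0003537) and the glucocorticoid receptor NR3C1 by 1.07 ± 0.09 (adjusted p = 5.984e-05), while the transcription factor CEBPD rose by 0.94 ± 0.18 (adjusted p = 0.00268). LIF, RELA and JAK1, also abundant, were not called, at -0.04 ± 0.14, 0.11 ± 0.15 and -0.19 ± 0.09 (adjusted p = 0.816, 0.562 and 0.1095). In replicate 2, CEBPD was also higher, by 0.68 ± 0.15 (adjusted p = 0.000549), and no other gene of this list was called. None of these lists had a gene called for si-PLANE.1.

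The genes whose pattern over the 6 libraries was most like each of the 9 were found by the root-mean-square difference of log2(FPKM + 1), each gene centred at its own mean, among 13274 genes. C1R was nearest to UBE2L6 at 0.18, NMI at 0.23 and APOL1 at 0.25, and C1S was ninth at 0.34. Among the neighbours of C1S, C1R ranked 557. FGB was nearest to PRKD3 at 0.03, and CD46 was its ninth neighbour at 0.07. This likeness holds for summed FPKM with non-coding transcripts included. In counts FGB changed by -1.12 with si-PLANE.2 and CD46 by -0.20, which was not called. FGG was nearest to LIN7C at 0.05 and CD55 to GLUD1P2 at 0.08. The nearest member to each was the other, at 0.17, though CD55 ranked only 74 for FGG and FGG 72 for CD55. C3 was nearest to ALDOC at 0.09, CD59 to TIMP1 at 0.03, FGA to UTP20 at 0.04 and C1S to LANCL2 at 0.11.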

How the data were processed

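Deposited tables of 180253 transcripts were read, 1 per siRNA, each with expected counts and FPKM per library and with identical si-ctrl columns. The authors deposited the expected counts, estimated reads per transcript, and FPKM, the same scaled to transcript length and library size. The submitters' processing notes name Trimmomatic 0.30, HISAT2 2.0.1, HTSeq 0.6.1, DESeq and hg19. The tool that gave the expected counts and the strand setting are not given in the sources used here. Both values were summed per gene identifier, leaving out 16723 transcripts without one, which held 3.03% to 3.62% of the counts. Transcript classes came from GENCODE v44lift37, which held 151453 of the transcripts.

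Rounded gene or transcript sums with a mean of at least 0.5 FPKM in the libraries compared were tested with edgeR 4.0.16 (quasi-likelihood, TMM scaling, two-sided, Benjamini-Hochberg over all features, adjusted p below 0.05) in R 4.3.3, after the code was tested on simulated data. The 4 libraries of si-ctrl and 1 siRNA made up each siRNA comparison, the siRNAs were compared with each other over all 6, and replicate 2 was compared with replicate 1 over si-ctrl and si-PLANE.1 with a group term. Errors of log2 changes are SE from the F statistic. Alternatives used DESeq2 1.42.0, limma 3.58.1 on log2(FPKM + 1) and log2(FPKM + 0.1), other minimums and scalings, a replicate block and each library left out. Fits without transcripts annotated as non-coding and of the 4 siRNA libraries alone were added after seeing the data. Tables were made with Python 3.11.15 and pandas 2.3.3. Promoters were RefSeq sequences (GRCh38), and coding ends came from GENCODE v44lift37 transcripts (GRCh37). RefSeq promoters matched 7 of the 9 genes. Intervals and floors cover counting error only.

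The 9 genes, the gene lists and the tests were chosen with earlier results of these data known. From each list, genes were named by mean level and by an edgeR call between replicates. A gene that this rule names is not reported here.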

Additional observations from a re-analysis of the deposited data

Results flagged for a closer look

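For 5 of the 9 genes the effects of the 2 siRNAs differed by a direct test over all 6 libraries (edgeR quasi-likelihood, difference si-PLANE.2 minus si-PLANE.1 on the log2 scale of counts). The same test called 64.5% of all genes (9306 of 14437), so the count is not particular to these genes. CD55 differed by -1.71, FGG by -1.46 and FGB by -0.98, each lower with si-PLANE.2. C1S differed by 1.12 and CD59 by 0.95, each higher with si-PLANE.2. The C1S call was lost with DESeq2 (adjusted p = 0.0664) and with limma on log2(FPKM + 1) (0.72, adjusted p = 0.168), and the CD59 call with limma (0.18, adjusted p = 0.344). The summed FPKM of histone mRNAs without poly(A) also separated these groups, at 641 and 952.5 (si-PLANE.1) against 2.28 and 3.84 (si-PLANE.2), so that the siRNA and how its libraries were prepared cannot be told apart.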

How the results depend on the processing

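The number of the 9 genes called was 0 for si-PLANE.1 under every alternative run, 6 to 7 for si-PLANE.2, 4 to 6 for si-PLANE.2 against si-PLANE.1 and 0 to 4 for replicate 2 against replicate 1, where both limma fits called 0 and the reported fit 3. Leaving out 1 library gave 0 to 0, 5 to 8, 4 to 7 and 4 to 4, and for the main isoforms with si-PLANE.2 0 to 14, with 0 where either si-PLANE.2 library was left out. In these fits a lone library is assumed to vary like the pairs that remain, so that their counts do not show stability. For si-PLANE.1 the isoforms called were 0 to 0. Among all genes, si-PLANE.1 calls numbered 5 in the reported fit, 125 with DESeq2, 17 with all 6 libraries in one fit, 1 and 3 with limma, 1 without si-ctrl_1 or si-PLANE.1_2 and 3 without si-ctrl_2. Replicate calls numbered 813, 233 with DESeq2, 46 and 62 with limma and 113 with no group term. Limma on log2(FPKM + 1) moved the median of all genes to -0.22 for si-PLANE.2 and -0.33 for the difference of the siRNAs, and split the si-PLANE.2 calls into 3009 higher and 5109 lower, against 4513 and 4571.

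The direction of a log2 change turned in the following. With limma at pseudocounts of 1 and 0.1, si-PLANE.1 changes were 0.0686 and 0.0664 for C1S, 0.0138 and 0.0138 for CD46 and 0.0445 and 0.0449 for CD59, the C3 change with si-PLANE.2 was -1.07 and -1.07, and its difference between siRNAs was -0.70 and -0.71. Without transcripts annotated as non-coding, CD46 gave 0.0856 for si-PLANE.2 and 0.23 between siRNAs. Leaving out 1 library at a time, si-PLANE.1 changes ran from -0.60 to 0.0029 for C3, -1.10 to 1.10 for C1R, -0.80 to 0.45 for C1S, -0.24 to 0.0546 for CD46, -0.15 to 0.14 for CD59 and -0.27 to 0.0246 for FGB. The C3 change with si-PLANE.2 ran from -0.11 to 0.32, and differences between siRNAs ran from -0.38 to 1.83 for C1R and -0.18 to 0.0002 for CD46. The FGA replicate difference was 0.0507 and 0.0544 without si-ctrl_1 or si-ctrl_2, and -0.32 at the lowest. The causes were not tested.

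With the replicate number as a block, the si-PLANE.1 comparison called 1225 of all genes and 0 of the 9, with changes of -0.28 for C3, 0.20 for C1R and 0.21 for CD55. The replicate differences in the si-ctrl group and in the si-PLANE.1 group correlated at 0.50 over 14440 genes, and the labels do not say that the numbers pair libraries. With 2 libraries per group, the number of libraries limits every test.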
